A study of Homo sapiens with 6 samples.

Results

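The 10 genes described here, ITGA1, ITGA2, ITGA11, ITGA5, ITGAV, ITGB1, ITGB3, ITGB5, ITGB6 and ITGB8, encode integrin subunits found on fibroblasts or on the cells next to them, out of 20007 protein-coding genes in the annotation used (GENCODE version 44, human build hg38). The list is one of gene names, drawn up with earlier results of these data known, and the regions assigned to them are the ZNF469 CUT&RUN records that overlap the gene body or the 20 kb on either side of it. CUT&RUN cuts and releases DNA at the place where an antibody has bound, here an antibody to ZNF469, a zinc finger protein studied as a regulator of collagen genes. Of 19108 records listed for full-length ZNF469, 37 lay in the windows of the 10 genes, and none of the 54 records listed for the dZF form did. Of all protein-coding genes, 52% had a full-length record and 0.125% a dZF record in the same kind of window.

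The cells were LX2, an established line of immortalized human hepatic stellate cells, the liver cells that turn into matrix-producing myofibroblasts in fibrosis. They were grown with 2-phospho-L-ascorbic acid and carried a doxycycline-inducible construct of either full-length ZNF469 (clone3.4) or dZF, a form of ZNF469 that lacks most of its zinc fingers (clone3.1). Both groups received 1 µg/mL doxycycline for 24 h, so the protein profiled in each was overexpressed, and each group had 3 libraries. Uninduced cells were not analysed here. The deposited list of each group pools its 3 libraries, so there is no value per library, no replicate error and no test between groups, and construct and cell line cannot be told apart.

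Integrins are pairs of 1 alpha and 1 beta chain that span the plasma membrane, hold the cell to the matrix outside and couple it to actin inside. ITGA1, ITGA2 and ITGA11 each pair with ITGB1 into receptors for triple-helical collagen. ITGA5 with ITGB1, and ITGAV with ITGB1, ITGB3, ITGB5, ITGB6 or ITGB8, bind the Arg-Gly-Asp (RGD) motif of fibronectin, vitronectin and other ligands. The pairs of ITGAV with ITGB6 and ITGB8 bind this motif in the propeptide that keeps TGF-beta latent and release the active cytokine, a main driver of collagen production in stellate cells. Below, the RGD-binding subunits are ITGA5, ITGAV, ITGB3 and ITGB5. The TGF-beta-activating subunits ITGB6 and ITGB8 are counted apart, and ITGB1, the partner that both kinds share, is described alone. ITGAV is part of both TGF-beta-activating pairs but is counted as RGD-binding. The classes are therefore labels for subunits, and a class value does not describe whole receptors.

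All 10 genes had at least 2 full-length records in their windows, and the records per gene ran from 2 to 8. Each record carries the fold enrichment at its summit (pileup plus 1 over local background plus 1), the −log10 p of the peak caller for that pileup, and the summit itself. The pileup, the number of fragments stacked at the summit, followed from these values as a whole number. Records are named by gene and number, counted by rising chromosome position. The sequences below span 100 bp on either side of the summits of 7 records, read from the plus strand of hg38. They were picked to show collagen-binding genes with an AP-1 site near the summit, RGD-binding records both with and without such a site, and for each TGF-beta-activating gene its highest-fold record with a site or, where no record had one, its highest-fold record. AP-1 is the dimer of FOS and JUN proteins, and capitals mark its site, TGACTCA or, on the other strand, TGAGTCA.
ITGA2-3: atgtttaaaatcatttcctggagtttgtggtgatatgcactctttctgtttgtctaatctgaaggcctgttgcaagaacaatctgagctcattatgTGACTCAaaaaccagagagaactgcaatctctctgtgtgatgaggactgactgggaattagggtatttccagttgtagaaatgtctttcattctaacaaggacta
ITGA11-2: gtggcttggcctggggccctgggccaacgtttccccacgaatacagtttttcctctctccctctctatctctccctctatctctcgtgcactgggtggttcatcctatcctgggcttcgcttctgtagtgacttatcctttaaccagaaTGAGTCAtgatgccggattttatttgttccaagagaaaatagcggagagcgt
ITGA5-1: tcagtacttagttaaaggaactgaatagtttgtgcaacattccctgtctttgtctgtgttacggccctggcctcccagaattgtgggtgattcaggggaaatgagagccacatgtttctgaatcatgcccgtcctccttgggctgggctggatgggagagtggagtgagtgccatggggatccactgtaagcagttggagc
ITGA5-2: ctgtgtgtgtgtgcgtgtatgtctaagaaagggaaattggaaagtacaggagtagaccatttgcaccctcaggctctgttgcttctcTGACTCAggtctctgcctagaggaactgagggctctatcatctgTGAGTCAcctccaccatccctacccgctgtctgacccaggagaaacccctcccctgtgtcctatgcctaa
ITGAV-1: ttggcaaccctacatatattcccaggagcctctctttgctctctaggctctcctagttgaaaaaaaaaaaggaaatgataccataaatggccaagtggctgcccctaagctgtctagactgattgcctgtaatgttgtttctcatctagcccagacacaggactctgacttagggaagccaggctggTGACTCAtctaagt
ITGB6-2: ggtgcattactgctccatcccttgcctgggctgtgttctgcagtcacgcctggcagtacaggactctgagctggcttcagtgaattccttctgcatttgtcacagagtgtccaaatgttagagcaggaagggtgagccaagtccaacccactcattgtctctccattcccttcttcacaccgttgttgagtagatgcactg
ITGB8-1: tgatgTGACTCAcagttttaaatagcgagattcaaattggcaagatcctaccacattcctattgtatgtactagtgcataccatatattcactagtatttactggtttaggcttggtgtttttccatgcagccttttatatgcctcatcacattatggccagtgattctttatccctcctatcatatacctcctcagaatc
ITGA2-3 lies at chr5:53031905-53032105, ITGA11-2 at chr15:68384572-68384772, ITGA5-1 at chr12:54411500-54411700, ITGA5-2 at chr12:54423259-54423459, ITGAV-1 at chr2:186575349-186575549, ITGB6-2 at chr2:160214692-160214892 and ITGB8-1 at chr7:20385267-20385467. In ITGA2-3 the AP-1 site is centered 1 bp from the summit, and ITGA5-2 holds 2 sites on opposite strands. ITGA5-1 and ITGB6-2 hold none in the printed window or in the rest of the record.

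Full-length ZNF469 records were denser at these genes than at protein-coding genes in general. Of all 20007 genes, 52% had 1 or more full-length records in the same kind of window, and of the 8870 genes within the length range of the 10 (24.0 to 171 kb) 56.1% did. Genes with 2 or more records made up 26.9% of all genes and 29.2% of those of like length, against 10 of 10 here. The median was 3.5 records per integrin gene and 1 in both comparison groups. The genes of like length share only the range, with a median length of 54.4 kb against 103 kb for the integrin genes. Counts per gene therefore favor the longer integrin windows. Summed over the windows, the integrin genes held 2.59 records per 100 kb, all genes 1.01 and genes of like length 1.06, a description of 1 pooled list without a test, for genes that were not chosen independently of it. With gene bodies alone, 26 of the 37 records stayed, ITGAV and ITGB6 had none, and 33.7% of all genes had a record. At the dZF list, 0 of the 10 genes had a record, against 0.125% of all genes (25 of 20007). The nearest dZF record was 456 kb from the body of ITGA11, the next nearest 13197 kb from that of ITGB1, and the chromosome of ITGA5 held none.

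**Figure D1:**
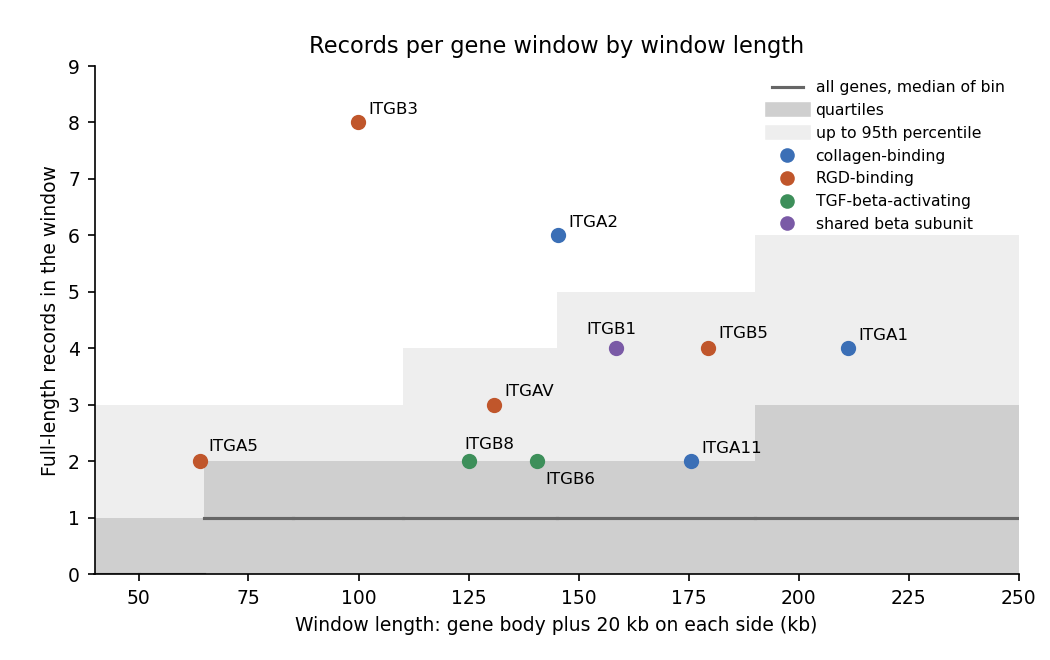
Full-length records per gene window (vertical axis) against window length in kb (horizontal axis) for the 10 integrin genes, colored by subunit class, over the median (line), quartiles (dark gray) and 95th percentile (light gray) of all protein-coding genes in bins of window length. ITGB3 with 8 records and ITGA2 with 6 lie above the 95th percentile of their bins, and the other genes lie at or above the bin median of 1 record, or of 0 for ITGA5.

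ITGB3 and ITGA2 stood out by number. ITGB3 held 8 records, or 8.01 per 100 kb, which 0.609% of genes of like length matched or passed in number. ITGA2 held 6 records, or 4.13 per 100 kb. ITGA1, ITGB1 and ITGB5 held 4 each, ITGAV 3, and ITGA5, ITGA11, ITGB6 and ITGB8 held 2 each. ITGA5, the shortest of the genes at 24.0 kb, still had 3.12 records per 100 kb, whereas ITGA11 had 1.14, the lowest density among the 10.

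**Figure D2:**
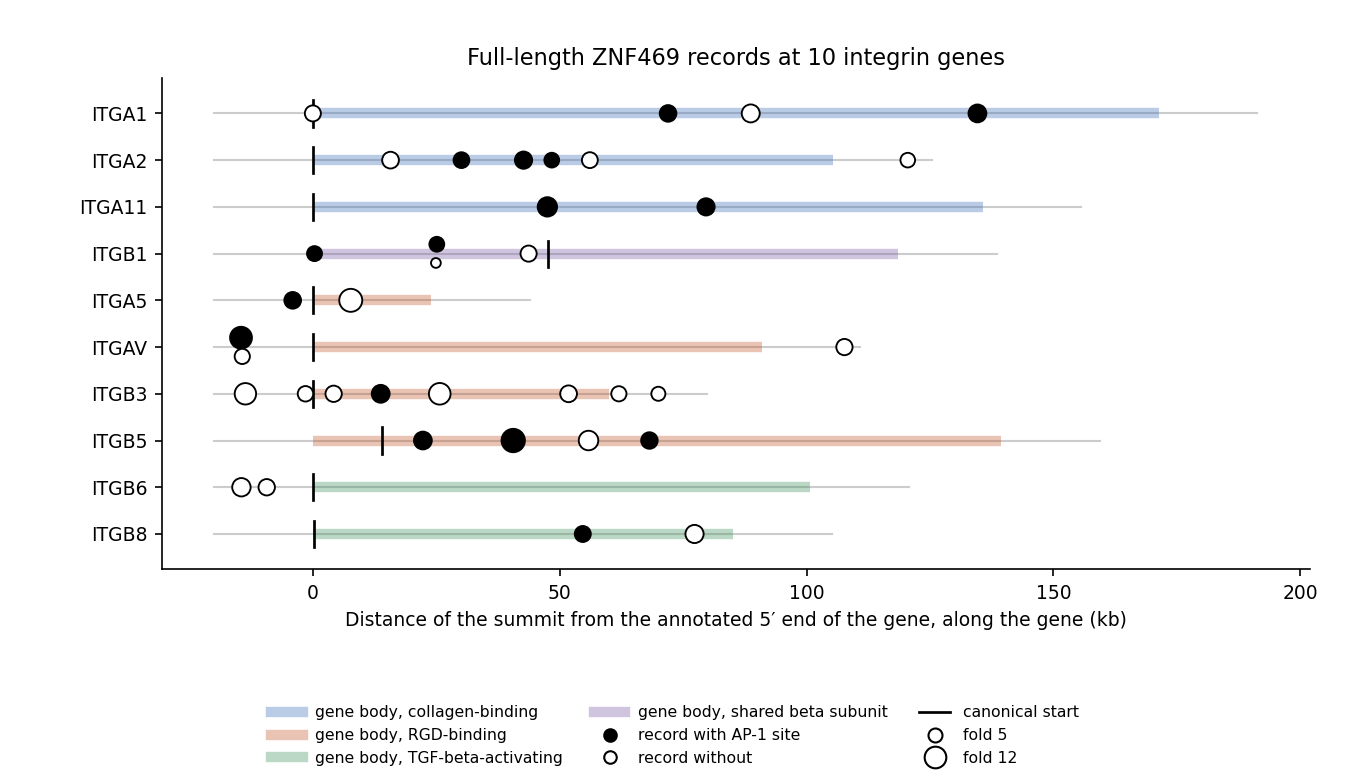
Position of the 37 full-length records (circles, area by fold enrichment, filled where the record holds an AP-1 site) along the 10 genes, in kb from the annotated 5′ end, with the gene body as a colored bar, the 20 kb flanks as thin lines and the canonical start as a black tick. Both pairs of records less than 1 kb apart, at ITGB1 and ITGAV, are drawn one above the other, and only the first ITGA1 record lies on a canonical start.

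Among the collagen-binding subunits, ITGA1 (chr5:52787916-52959209, plus strand), which encodes a receptor chain for basement membrane and fibrillar collagens, held 4 records. ITGA1-1 covered the start of the canonical transcript, with its summit 0.009 kb upstream, an enrichment of 6.56-fold, a pileup of 23 (14.6 to 34.5) and a −log10 p of 14.7. Brackets after a pileup give its exact 95% Poisson interval and reflect the counting of fragments alone. The same record covers the start of PELO, a ribosome rescue factor whose gene lies at the same place, and of its antisense RNA, so it cannot be assigned to one of them. The other 3 lay in introns 2, 6 and 17 of the canonical transcript, 71.9, 88.7 and 135 kb downstream, with folds of 7.10, 8.27 and 8.17 and pileups of 17, 18 and 16. The pileup limits of the 4 ITGA1 records overlap, and a difference between them was not tested. ITGA1-2 and ITGA1-4 held AP-1 sites.

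ITGA2 (chr5:52989340-53094779, plus strand), the neighboring gene, which encodes another collagen receptor chain, held 5 records in introns 1, 2 and 4 and 1 beyond its end. Their folds were 7.17, 6.39, 7.63, 5.59, 6.44 and 5.48 and their pileups 23, 20, 27, 15, 14 and 13 in chromosome order. The 5 intronic summits spanned 15.7 to 56.1 kb from the canonical start, so they sat together in the first part of the gene. The highest, ITGA2-3, had a −log10 p of 18.7 and a pileup of 27 (17.8 to 39.3), and its summit fell on an AP-1 site 42.7 kb into the gene, over an exon of a lncRNA on the other strand. ITGA2-2 and ITGA2-4 also held AP-1 sites. ITGA2-6 lies at the start of MOCS2, a molybdenum cofactor gene, 15.1 kb beyond the end of ITGA2, and had the highest GC content of the 6 (68.4%).

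ITGA11 (chr15:68296532-68432163, minus strand), the collagen receptor chain most closely tied to fibroblasts, held 2 records. Both were intronic, with ITGA11-2 in intron 2, 47.5 kb from the start, and ITGA11-1 in intron 7 at 79.6 kb. Both had an AP-1 site, 52 and 45 bp from the summit. ITGA11-2 had an enrichment of 9.61-fold, a pileup of 20 (12.2 to 30.9) and a −log10 p of 18.7, the highest fold among the collagen-binding subunits and higher than 85.7% of all full-length records. ITGA11-1 had an enrichment of 7.60-fold and a pileup of 16 (9.15 to 26.0). The pileup limits of the pair overlap, and a difference was not tested.

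The shared partner ITGB1 (chr10:32887273-33005792, minus strand) differed in position. Its canonical transcript starts at position 32958230, and the annotated body reaches 47.6 kb further through long transcripts. All 4 ITGB1 records lay in that upstream stretch, 3.87, 22.5, 22.6 and 47.2 kb from the canonical start, over the divergent lncRNA ITGB1-DT. ITGB1-4 sat 0.326 kb inside the outermost ITGB1 start, with an enrichment of 5.76-fold and a pileup of 21, and its AP-1 site was 25 bp from the summit. ITGB1-2, next to a start of ITGB1-DT, had an enrichment of 5.66-fold, a pileup of 28 (18.6 to 40.5) and an AP-1 site 32 bp from the summit. ITGB1-3, 84 bp away from it, had an enrichment of 2.45-fold and a pileup of 12, and ranked 19095 of 19108 by fold. ITGB1-1 had the highest fold at this gene, 6.66, with a pileup of 27.

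All 4 ITGB1 records were below the median fold of the list, while 3 of them, all but ITGB1-3, had pileups above the list median of 20. The local background under its records was 2.82 to 4.31 fragments, against a median of 1.82 for all full-length records and 1.08 to 2.67 at the collagen-binding subunits. The median fold at ITGB1 was 5.71 with a median pileup of 24. The fold therefore ranks ITGB1 last among the classes, and the pileup ranks it above the other 3. Which value better reflects ZNF469 at this gene was not tested.

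Of the 37 records, the strongest by fold and pileup were at the RGD-binding subunits. ITGA5 (chr12:54395261-54419266, minus strand), the fibronectin receptor chain, had the record with the highest pileup and −log10 p of the 37. ITGA5-1 lay in intron 2, 7.67 kb from the canonical start and 1.83 kb from the start of a shorter ITGA5 transcript, with an enrichment of 13.5-fold, a pileup of 44 (32.0 to 59.1) and a −log10 p of 40.6. It ranked 185 of 19108 by fold. It held neither form of the AP-1 site, but 2 matches to the looser TGANTCA, and 1 TEAD match. ITGA5-2, 4.09 kb upstream of the start, had 2 AP-1 sites, an enrichment of 7.14-fold and a pileup of 29 (19.4 to 41.6). Both records lie within the lncRNA gene GPR84-AS1.

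ITGAV (chr2:186590010-186680901, plus strand), the alpha chain shared by the RGD-binding and TGF-beta-activating pairs, had no record in its body. ITGAV-1, 14.6 kb upstream in intergenic DNA, had an enrichment of 12.2-fold, a pileup of 28 (18.6 to 40.5), a −log10 p of 27.6 and rank 429 by fold. It held 2 AP-1 sites, the nearer of them 90 bp from the summit. ITGAV-2 began 51 bp further on, with an enrichment of 5.93-fold and a pileup of 13 (6.92 to 22.2). ITGAV-3, with an enrichment of 6.77-fold, was 16.8 kb beyond the end and inside FAM171B, the neighboring gene.

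ITGB3 (chr17:47253827-47313743, plus strand), which pairs with ITGAV into a vitronectin receptor, had records on both sides of its start and through its body. In chromosome order the folds were 11.7, 6.13, 6.81, 8.19, 11.97, 7.18, 5.90 and 5.05, and the pileups 41, 17, 19, 26, 35, 20, 15 and 12. The highest of them were ITGB3-1 at 13.7 kb upstream with a pileup of 41 (29.4 to 55.6), and ITGB3-5 in intron 2, 25.7 kb downstream, with 35 (24.4 to 48.7). Neither held an AP-1 site. ITGB3-2 was 1.5 kb upstream of the canonical start, with an enrichment of 6.13-fold and a pileup of 17. Only ITGB3-4, in intron 1, held an AP-1 site, 68 bp from the summit. The last 2 records lie beyond the gene, and the summit of ITGB3-8 is 0.507 kb from the start of EFCAB13. The records from ITGB3-3 to ITGB3-8 also fall within a readthrough gene annotated across both.

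ITGB5 (chr3:124761948-124901418, minus strand), another vitronectin receptor partner of ITGAV, held 4 records, all in its body. ITGB5-3 had the highest fold of the 37, 14.0, with a pileup of 34 (23.5 to 47.5) and a −log10 p of 34.4, and ranked 121 of 19108. It lay in intron 2 and held an AP-1 site. ITGB5-2 in intron 4 had an enrichment of 9.75-fold and a pileup of 22 (13.8 to 33.3) without an AP-1 site. ITGB5-4 in intron 1 had an enrichment of 8.12-fold, a pileup of 22 and 2 AP-1 sites, and ITGB5-1 in intron 5 had an enrichment of 6.99-fold, a pileup of 17 and 1 AP-1 site. ITGB5-1 and ITGB5-4 were at starts of short ITGB5 transcripts, with summits 0.237 and 0.420 kb upstream of them.

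The TGF-beta-activating subunits had 4 records, with folds from 6.57 to 8.66. ITGB6 (chr2:160099667-160200313, minus strand), known mainly from epithelial cells, had no record in its body. ITGB6-1 and ITGB6-2 lay 9.39 and 14.5 kb upstream of the canonical start, both inside a lncRNA gene, with folds of 6.88 and 8.66, pileups of 26 (17.0 to 38.1) and 23 (14.6 to 34.5), and −log10 p of 16.7 and 18.6. Neither had an AP-1 site. ITGB8 (chr7:20330702-20415754, plus strand) had its records in introns 6 and 12, 54.5 and 77.1 kb from the canonical start. ITGB8-1 had an enrichment of 6.57-fold, a pileup of 12 (6.20 to 20.96) and an AP-1 site 92 bp from the summit, and ITGB8-2 had an enrichment of 8.44-fold and a pileup of 19 (11.4 to 29.7) without one. Within each gene the pileup limits of the 2 records overlap, and a difference was not tested.

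**Figure D3:**
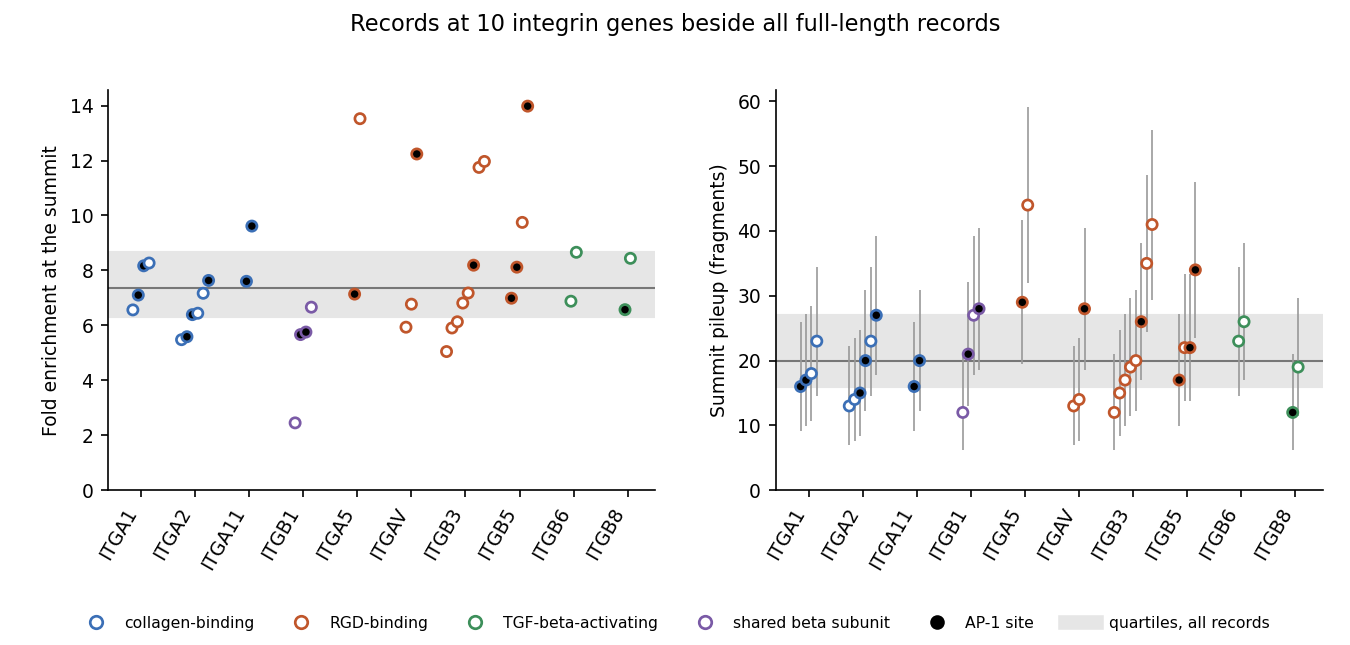
Fold enrichment (left) and summit pileup in fragments with exact 95% Poisson limits (right) of each of the 37 records by gene, ordered by value within a gene, with rings colored by class and filled where the record holds an AP-1 site. The line and gray band give the median and quartiles of all 19108 full-length records. The 5 of 37 records with more than 10-fold enrichment, beside 10.9% of all full-length records, belong to ITGA5, ITGAV, ITGB3 and ITGB5. All 4 ITGB1 records fall below the median by fold, against 1 of the 4, ITGB1-3, by pileup.

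Compared by class, the number of records per 100 kb was 2.25 for the collagen-binding subunits (12 records), 3.58 for the RGD-binding subunits (17 records), 1.51 for the TGF-beta-activating subunits (4 records) and 2.52 for ITGB1. These classes hold only members of the 10. ITGA10, ITGA8 and ITGA2B, with 3, 0 and 0 records, are counted among other subunits below. Class densities that include them were not computed. The order between the first pair of classes narrowed with gene bodies alone, to 2.67 and 2.86 per 100 kb. Genes within a class differed more than the classes did. Among RGD-binding subunits ITGB3 had 8.01 per 100 kb, against 3.12 for ITGA5, 2.29 for ITGAV and 2.23 for ITGB5. Among collagen-binding subunits ITGA2 had 4.13, against 1.89 for ITGA1 and 1.14 for ITGA11. Positions by class are counts without a test. On the canonical transcripts, 10 of 12 collagen-binding records were intronic, against 9 of 17 RGD-binding records, 2 of 4 TGF-beta-activating records and 0 of 4 at ITGB1. Flanks held 8 of the 17 RGD-binding records and 1 of the 12 collagen-binding records. Of these 8, ITGB3 held 4, ITGAV 3 and ITGA5 1. Gene bodies ran from 105 to 171 kb in the collagen-binding class and from 24.0 to 139 kb in the RGD-binding class. Flanks were 20 kb on each side in both, and the positions are not adjusted for this. None of the 37 records overlapped an exon of a canonical transcript at its summit.

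By strength, the class medians lay close together and the highest records did not. The median fold was 7.13 for the collagen-binding, 7.18 for the RGD-binding and 7.66 for the TGF-beta-activating subunits, and the median pileup was 17.5, 22 and 21. The median −log10 p was 14.0, 17.1 and 16.4 in the same order. Of the 37 records, 5 were in the upper 10% of the full-length list by fold. All 5 were RGD-binding, from ITGB5, ITGA5, ITGAV and ITGB3. The collagen-binding subunits reached 9.61 and the TGF-beta-activating subunits 8.66. The upper 10% was chosen after the values were seen. With pileups this low, 17 of the 37 records, the highest included, had limits that reached those of ITGA5-1.

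As a whole, the integrin records were not stronger than other full-length records. Their median fold was 7.10 against 7.36 for all records, their median −log10 p 14.7 against 15.0, and their median pileup 20 in both. Of the 37, 15 (40.5%) lay above the median fold of the list and 8 in its upper 25%. Median width was 404 bp against 440 bp, and median GC content 46.4% against 44.6%.

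Most records were away from the canonical start. Only ITGA1-1 lay within 1 kb of one, and ITGB3-2 was the only other within 3 kb. Within 3 kb of any annotated transcript start, of any gene, lay 18 of the 37 records (48.6%), against 39.3% of all full-length records. Of these 18, only 8 were near a start of the integrin gene itself, at ITGA1, ITGB1, ITGA5, ITGB3 and ITGB5, and the other 10 were near starts of lncRNAs, pseudogenes or neighboring genes alone. Within 1 kb of a start the share was 29.7%, against 28.9% of all records. Without the 4 records in or at another named protein-coding gene (ITGA1-1, ITGA2-6, ITGAV-3 and ITGB3-8), 33 records stayed and each of the 10 genes kept at least 1, with a median fold of 7.17.

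AP-1 sites were as common in the integrin records as in the list. They were present in 16 of 37 records (43.2%, 95% Wilson interval 28.7 to 59.1) and in 44.1% of all full-length records. Away from promoters the shares were 10 of 19 (52.6%) and again 52.6% of all such records. Genome tiles of 404 bp, the median width of the integrin records, held a site in 6.01% of cases. The integrin windows held 256 AP-1 sites, of which 19 (7.42%) lay in full-length records, against 2.27% of the 462326 sites in the genome. Records of any kind were also denser in these windows, at 2.59 per 100 kb against 0.650 per 100 kb of genome. The site comparison is not adjusted for that. A site was therefore common in the records, while most sites at these genes lay outside any record.

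By class, AP-1 sites were found in 7 of 12 collagen-binding records (58.3%, 32.0 to 80.7), 6 of 17 RGD-binding records (35.3%, 17.3 to 58.7), 1 of 4 TGF-beta-activating records (25%, 4.56 to 69.9) and 2 of 4 at ITGB1 (50%, 15.0 to 85). These intervals overlap, but they count every record as independent, although each class rests on few genes. Of the RGD-binding records, ITGB3 gave 1 with a site of 8, ITGA5 1 of 2, ITGAV 1 of 3 and ITGB5 3 of 4. A difference between classes was not tested. In all 16 records with AP-1 the nearest site was within 100 bp of the summit, against 72.9% of all full-length records with a site. Within 50 bp it was 6 of 16 (37.5%) against 43.7%, and these 6 were at ITGA1, ITGA2, ITGA11, ITGB1 and ITGA5. The median distance was 64 bp for the integrin records and 55 bp for all. Median width of the records with AP-1 was 331 bp here and 463 bp in the whole list. A narrower record keeps its sites nearer the summit, and these distances are not adjusted for width. The median fold was 7.37 in the 16 records with AP-1 (quartiles 6.53 to 8.17) and 6.81 in the 21 without (6.13 to 8.44), a gap smaller than the spread within either set.

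**Figure D4:**
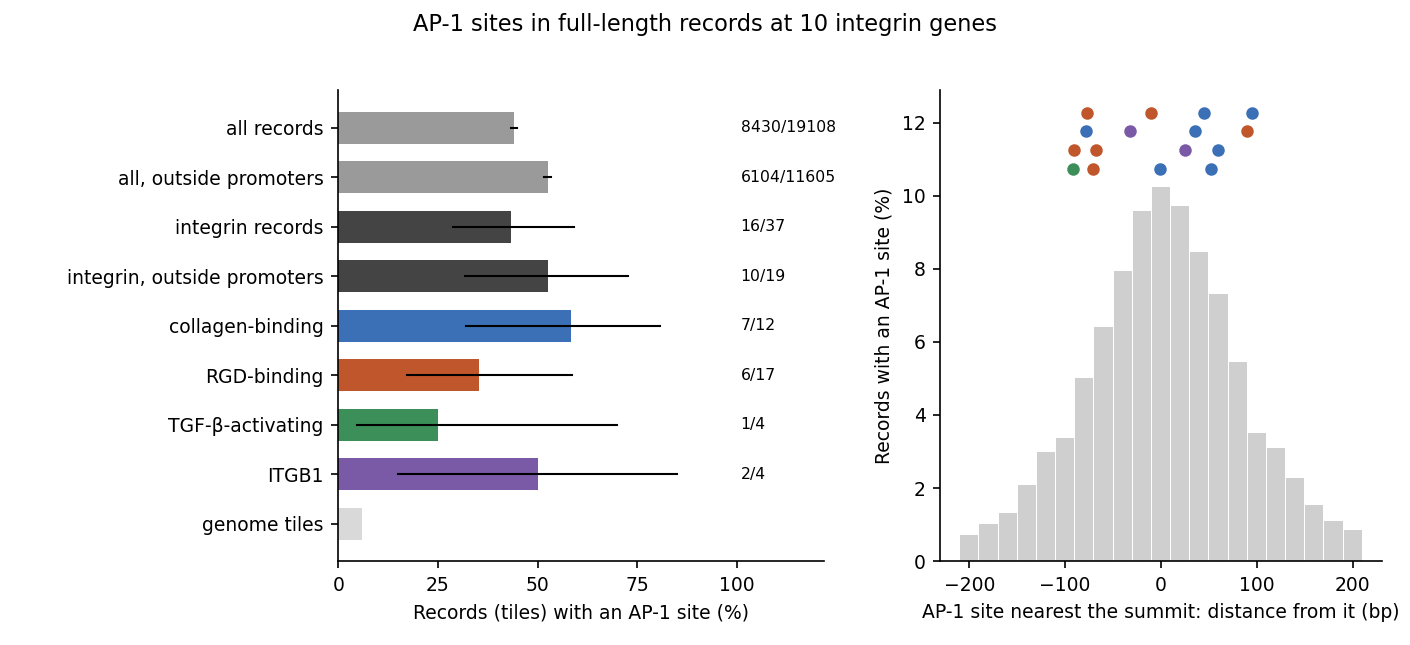
Left, share of records with an AP-1 site (%) in all full-length records, the integrin records and each class, with 95% Wilson intervals as lines and counts at the right, above the share in genome tiles of 404 bp. Right, distance in bp of the nearest AP-1 site from the summit for the 16 integrin records that hold one (points, colored by class, staggered for legibility) over all full-length records with a site (bars, % per 20 bp). The class intervals overlap, and all 16 points lie within 100 bp of the summit. The 16 records have a median width of 331 bp, against 463 bp for all with a site.

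Other sites also matched the list. TEAD sites (GGAATG or CATTCC), bound by the partners of YAP that respond to adhesion and stiffness, were in 13 of 37 records (35.1%) against 35.6% of all records and 20.8% of genome tiles. RUNX sites (TGTGGTT or AACCACA) were in 5 of 37 (13.5%) against 14.1% of all records and 7.61% of tiles. The 7 TEAD records of the RGD-binding class included ITGA5-1, ITGB5-3 and ITGB3-5. A match is a run of letters and says nothing on its own about which factor was bound.

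Among 16 other integrin subunits, 8 had a full-length record, a share of 50% beside 52% of all genes, and their windows held 0.973 records per 100 kb. ITGA3, a laminin receptor chain, had 6 records and 8.05 per 100 kb, with folds up to 8.77, and ITGA10, a collagen receptor chain of cartilage, had 3 with folds up to 6.12. ITGA6 and ITGA7, both laminin receptor chains, and ITGB7, a leukocyte chain, had 2 each. Of the 8 leukocyte or platelet subunits among the 16, 4 had a record, with 5 gene-record pairs in all because ITGAD and ITGAX share one. ITGA4, ITGA8, ITGA9 and ITGB4 had none.

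Inside the cell, integrins act through talin, kindlin, vinculin and focal adhesion kinase. Of 20 genes of this adhesion complex, 18 (90%) had a full-length record, beside 52% of all genes. They held 51 records or 1.58 per 100 kb, beside 1.01 for all genes. Longer windows favor a record, and the share is not adjusted for length. TLN2, a talin, had 13, of which 9 held an AP-1 site and the highest had an enrichment of 13.3-fold, although its 454 kb body gives 2.63 per 100 kb. PXN (paxillin) and VCL (vinculin) had 6 each, or 6.29 and 3.61 per 100 kb. PARVG and SRC had none. Of 9 genes of latent TGF-beta and its carriers, the ligand side of ITGB6 and ITGB8, 5 had a record (55.6%, beside 52% of all genes and 56.1% of genes of like length), among them TGFB2 with 6 and LTBP1 and LTBP2 with 4 each. No gene of these lists had a dZF record, beside 0.125% of all genes.

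The labelled cell type could not be checked against expression, since these lists hold no expression values. All 6 stellate cell marker genes (COL1A1, COL1A2, COL3A1, PDGFRB, ACTA2 and LOX) had full-length records, 34 in all or 7.63 per 100 kb. This compares with 1 of 4 hepatocyte, 2 of 4 endothelial and 3 of 4 leukocyte markers, beside 52% of all genes, so records in these windows do not identify a cell type. COL1A1 alone held 14, or 24.3 per 100 kb, and COL3A1 held 9, or 11.5 per 100 kb, so these collagen genes account for most of the stellate records. ITGB3, the densest of the 10 integrin genes described here, had 8.01.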

How the data were processed

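ZNF469 CUT&RUN was run on 6 libraries of LX2 cells, 3 with full-length ZNF469 and 3 with dZF. The authors deposited 1 peak list per group, the optimal list of an IDR filter (a test of rank agreement between libraries) over the pooled group. The submitters' processing notes name bcl2fastq, Bowtie2 2.3.4.3, MACS2 2.2.5, R 4.2.1, deepTools 3.5.1 and build hg38. Peak calling settings and the control are not given in the sources used here. In the deposited lists column 7 is a fold ratio of summit pileup over local background, and column 8 is the −log10 of the caller's p-value. The summit offset was used from column 10.

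The pileup and background of each record were solved from columns 7 and 8 (largest miss 6.94e-05 in −log10 p). The step returned 100% of 1000 simulated records. These were made with the formulas that the step inverts, so the simulation checks the calculation alone. Library depth is not given in the lists, and the pileup is the depth behind each value, so counting limits (95%) are wide. No test between groups was possible. A record within 3 kb of any transcript start was called promoter. Motifs were searched on both strands by exact match with pysam 0.24.0 under Python 3.11.15, numpy 2.4.6, pandas 2.3.3 and scipy 1.17.1. Where 1 symbol had several annotated genes the longest was kept.

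The members and gene lists were chosen with earlier results of these data known. For each member, the records with the highest fold, the highest pileup and the summit nearest a start of the gene are described in full. Sequences follow the highest-fold record with an AP-1 site within 100 bp of the summit, otherwise the highest-fold record. ITGA5-1 was added after its values were seen, and 7 are printed, for ITGA2, ITGA11, ITGA5, ITGAV, ITGB6 and ITGB8. Sequences of the other records are not reported here. Of other lists the 3 genes with most records are named, and others only by count or as sharing or lacking records.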

Additional observations from a re-analysis of the deposited data

How the results depend on the processing

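Across 18 results, 140 alternative values were computed, 126 planned and 14 added after seeing the data (leaving out records of another coding gene). Of these 100 stayed within the 95% interval of the main value, or within 1.5 times of a count or density, and 40 moved. The number of dZF records stayed at 0 with 50 kb flanks, the only alternative that could have raised it. In the other settings it was 0 by construction. Stricter lists account for most moves by construction, since they hold fewer records. In the upper 50% by fold, 15 integrin records stayed with a median fold of 8.66 and 33.3% in promoters, and densities per 100 kb were 0.939 (collagen-binding), 1.69 (RGD-binding, median fold 11.9) and 0.753 (TGF-beta-activating, AP-1 share 0%). In the upper 25% by fold, 8 records at 6 of the 10 genes stayed with a median fold of 11.9, with densities of 0.188 (collagen-binding, 1 record, AP-1 share 100%, fold 9.61), 1.27 (RGD-binding, median fold 12.1) and 0.376 (TGF-beta-activating, 1 record, AP-1 share 0%). In the upper 50% by pileup, 18 records stayed with a median fold of 8.15, with densities of 0.751, 1.90 and 0.753 in the same order and a TGF-beta-activating AP-1 share of 0%.

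With few records the order of the AP-1 shares also turned. The TGF-beta-activating share rose from 25% to 50% with gene bodies alone (2 records), with 50 kb flanks (6 records) and with TGANTCA (4 records), above RGD-binding shares of 44.4%, 33.3% and 47.1%.

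Counting only AP-1 sites within 50 bp of the summit lowered the share to 16.2% of integrin records (19.3% of all full-length records), 25% of collagen-binding, 5.88% of RGD-binding and 0% of TGF-beta-activating records. With promoters drawn at 1 kb the promoter share was 29.7%. The cause of these last moves is their construction, a narrower window. No paired analysis was possible because each deposited list pools its 3 libraries, and no library could be left out for the same reason. Pileups of 12 to 44 fragments limit what can be said of single records.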
